A study of Mus musculus with 6 samples.

Results

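Nitric oxide (NO) synthases convert arginine into NO and citrulline. The 10 genes described here are those of the 3 synthases and of the enzymes that supply their cofactor, recycle or consume arginine, or clear their inhibitors. They were taken by symbol from a count table of 24421 genes, and all 10 were present and abundant enough to be tested. RNA was sequenced from engineered muscle of the mouse C2C12 myoblast line, grown as a collagen construct anchored at artificial tendons and differentiated in horse serum. The 3 vehicle constructs received phosphate-buffered saline and the 3 TNF-alpha constructs received tumour necrosis factor alpha at 100 ng/mL, each for 72 h. All constructs carried the same line, with no genetic change given in the labels, and the labels call them biological replicates without saying whether separate cell batches were used. The p-values therefore reflect only how these 6 constructs varied.

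Nos1 encodes the neuronal isoform, which skeletal muscle fibres hold at the sarcolemma, Nos2 the inducible isoform, known from activated macrophages, and Nos3 the endothelial isoform. All 3 need tetrahydrobiopterin, whose synthesis begins with the enzyme of Gch1. Ass1 and Asl encode the pair of enzymes that turn citrulline back into arginine, Arg1 and Arg2 the cytosolic and mitochondrial arginases that split arginine into ornithine and urea, and Ddah1 and Ddah2 the hydrolases linked to the breakdown of asymmetric dimethylarginine, an endogenous inhibitor of NO synthases.

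Upstream sequence is shown for Gch1, Ass1 and Ddah1, which rose together, and for Ddah2, which fell. RefSeq's table for GRCm38.p6 held a start for 5 of the 10 members (Nos1, Gch1, Ass1, Ddah1 and Ddah2) and none for Nos2, Nos3, Asl, Arg1 or Arg2. Each run is on the gene's own strand, 5′ to 3′, and capitals mark a match to the NF-kB consensus. The runs of Ass1 and Ddah1 stop where an exon annotated by GENCODE M21 begins. They lie at chr14:47189414-47189663 (minus strand), chr2:31470020-31470206 (plus strand), chr3:145758442-145758674 (plus strand) and chr17:35058785-35059034 (plus strand), in that order.
Gch1: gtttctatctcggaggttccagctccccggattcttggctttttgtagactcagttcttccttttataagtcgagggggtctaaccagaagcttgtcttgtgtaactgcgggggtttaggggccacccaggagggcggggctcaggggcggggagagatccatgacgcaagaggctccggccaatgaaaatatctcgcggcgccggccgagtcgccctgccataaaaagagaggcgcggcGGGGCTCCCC
Ass1: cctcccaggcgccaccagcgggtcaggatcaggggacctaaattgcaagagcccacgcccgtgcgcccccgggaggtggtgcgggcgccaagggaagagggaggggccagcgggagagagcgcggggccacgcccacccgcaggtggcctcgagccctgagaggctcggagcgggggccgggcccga
Ddah1: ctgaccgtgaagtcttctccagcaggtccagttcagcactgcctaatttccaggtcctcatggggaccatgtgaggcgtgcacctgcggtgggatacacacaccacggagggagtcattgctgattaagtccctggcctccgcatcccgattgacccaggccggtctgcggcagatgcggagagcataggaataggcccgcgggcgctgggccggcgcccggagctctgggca
Ddah2: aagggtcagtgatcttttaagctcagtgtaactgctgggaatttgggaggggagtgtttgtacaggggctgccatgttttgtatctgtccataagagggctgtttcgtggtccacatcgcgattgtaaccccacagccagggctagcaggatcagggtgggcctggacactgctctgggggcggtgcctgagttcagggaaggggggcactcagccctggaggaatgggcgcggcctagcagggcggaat
The 250 bases before each of the 5 starts were searched on both strands. The NF-kB consensus matched in Gch1, directly before the start at -10 to -1, and in Nos1 at -90 to -81. The Nos1 start in that table lies inside the gene body of GENCODE M21, so its window is not shown. Of 32851 windows of the same length 3.90% held such a match. TTCNNNGAA, the GAS element bound by STAT factors, matched in Ddah2 alone (-58 to -50), against 7.02% of all windows. TGANTCA, the AP-1 element, matched in none of the 5 windows, against 6.75% of all windows. The matches did not overlap each other, and one of them stood before a gene that rose and the others before genes that fell.

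Libraries held 81713008 to 93533748 counts, and 15795 genes were tested. The constructs expressed muscle genes, with a summed level of 10 muscle markers of 12500 to 14300 CPM (counts scaled to library size with TMM) in vehicle and 8370 to 9370 CPM in TNF-alpha libraries. Of these 10 markers 8 fell, Myog rose and Acta1 did not pass the test. The called share was 90%, against 55.5% of all tested genes.

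With TNF-alpha, 7 of the 10 members rose, 2 fell and Arg1 did not pass the test. Calls rest on the edgeR quasi-likelihood test, with p-values adjusted over all tested genes by Benjamini-Hochberg and a threshold of 0.05. Of all tested genes, 55.5% passed in either direction, 27.6% upward and 27.9% downward. The TNF-alpha and vehicle libraries did not overlap for 9 of the 10 members, and for 64.5% of all tested genes. Of the members called, 7 changed at least 2-fold, against 17.9% of all tested genes, and 6 of these rose, against 8.46%. The median log2 fold change of the members was 1.57, and that of all tested genes 0.00 when rounded. The members and the gene lists below were chosen with earlier results of these data known. Comparisons with all tested genes therefore cannot measure an excess.

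**Figure D1:**
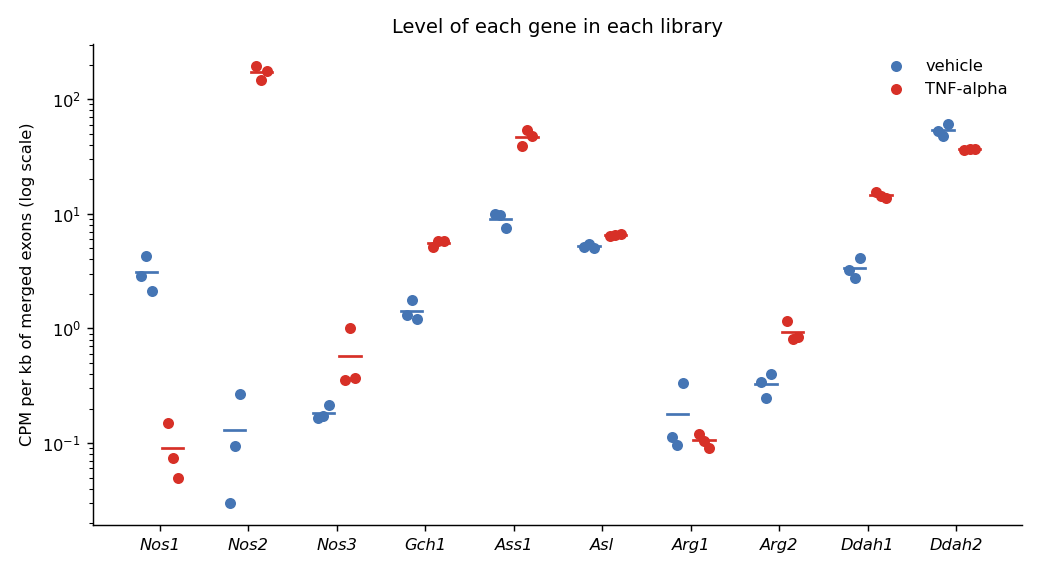
Level of each of the 10 genes in each library, as CPM per kb of merged exons on a log axis, with blue points for vehicle, red points for TNF-alpha and a line at each group's mean. Nos2 went from a mean of 0.131 to 174 CPM per kb and Nos1 from 3.09 to 0.0911, and the groups overlap for Arg1 alone.

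Nos2 (GRCm38 chromosome 11, 78920787 to 78960254, plus strand) had 11, 39 and 109 counts in vehicle replicates 1 to 3. In TNF-alpha replicates 1 to 3 it had 80630, 56185 and 65610 counts, or 863, 655 and 783 CPM. Every TNF-alpha library stood far above every vehicle library, and the vehicle libraries spread widely among themselves. The log2 fold change was 10.35 ± 0.59 (SE, adjusted p = 4.4e-05), the fifth largest rise of all tested genes (rank 5). It was 11.40 without vehicle replicate 3, which held most of the vehicle reads, and between 9.90 and 11.40 over all alternatives. Per kb of exon, Nos2 moved from rank 13679 to rank 241 among 15189 genes with a known length.

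Because Nos2 is best known from macrophages, leukocyte markers were examined beside it. Of 9 markers 7 were tested, 5 of these rose and none fell. Called genes made up 71.4% of those tested, against 55.5% of all tested genes. The summed level of the 9 markers was 14.8 to 15.6 CPM in vehicle and 91.6 to 108 CPM in TNF-alpha libraries. Cd14, a co-receptor for lipopolysaccharide, and the lysosomal gene Cd68 carried most of that sum, at 76.8 ± 7.99 and 19.8 ± 0.74 CPM in TNF-alpha libraries (SD, n = 3). The defining pan-leukocyte gene Ptprc had 4, 3 and 2 counts in vehicle and 0 in every TNF-alpha library. The macrophage gene Adgre1 had 0 counts in vehicle and 1, 2 and 0 in TNF-alpha replicates 1 to 3. Other myeloid genes of the list rose from low levels. Csf1r, the receptor of the macrophage growth factor, had 22, 20 and 24 counts in vehicle and 110, 144 and 122 in TNF-alpha replicates 1 to 3 (log2 fold change 2.54, edgeR adjusted p = 5.32e-05). The mannose receptor gene Mrc1 and the lysozyme gene Lyz2 also rose, by 4.92-fold and 2.39-fold, while Itgam and Fcgr1 did not pass the test. The part of these markers in the Nos2 result was not tested.

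Nos1 (chromosome 5, 117781032 to 117958840, plus strand) moved the opposite way. Its level was 32.1, 47.4 and 23.8 CPM in vehicle replicates 1 to 3, from 2188 to 4441 counts. In the TNF-alpha libraries it was 1.68, 0.819 and 0.550 CPM, from 46.1 to 157 counts. The lowest vehicle library stood far above the highest TNF-alpha library. The log2 fold change was -5.07 ± 0.48 (SE, adjusted p = 3.46e-04), at percentile 99.4 of the absolute changes of all tested genes. In bulk RNA, fewer cells of a type and less RNA per cell cannot be told apart. Nos1 fell further than any of the 10 muscle markers, whose log2 fold changes ran from -2.46 to 0.39. Its log2 ratio to their summed counts went from -8.65 ± 0.44 to -13.2 ± 0.89 (SD, n = 3), and the exact permutation test (two-sided) gave p = 0.1, the lowest value possible with 3 against 3 libraries. That ratio was chosen after the values were seen.

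Nos3 (chromosome 5, 24364810 to 24384474, plus strand) stayed scarce. It had 56.5, 66.5 and 81 counts in vehicle replicates 1 to 3, and 138, 355 and 129 counts in the TNF-alpha libraries. TNF-alpha replicate 2 stood well above the other two, although all 3 exceeded the vehicle libraries. The log2 fold change was 1.65 ± 0.42 (SE, adjusted p = 0.0124). It was 0.98 without TNF-alpha replicate 2 (adjusted p = 0.00851), and leaving out vehicle replicate 1 ended the call (adjusted p = 0.0519). Over the alternatives the adjusted p ran from 1.68e-04 to 0.0519. The opposite-strand gene Atg9b shares 294 exon bases (7.11%) with Nos3, and a further antisense gene, Gm15587, shares 1040 bases (25.2%). Whether counting used strand is not given in the sources used here. Atg9b itself rose by 1.15 ± 0.25 on the log2 scale (SE, edgeR adjusted p = 0.00778), with means of 15.8 ± 5.08 and 34.98 ± 7.21 CPM (SD, n = 3), and the part of these reads in the Nos3 values was not tested. The summed level of 6 endothelial markers was 4.41 to 6.14 CPM in vehicle and 4.35 to 4.99 CPM in TNF-alpha libraries, with Tie1 at 0 counts throughout, Vwf higher and Tek lower, and their part in the Nos3 result was not tested.

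The leading isoform differed between the groups. Among the 3 synthase transcripts, counted per exon length, Nos1 made up 93.7%, 94.1% and 81.6% in vehicle replicates 1 to 3. Nos2 made up 0.975%, 2.09% and 10.3% there, and 99.7%, 99.3% and 99.8% in the TNF-alpha libraries. The difference in the mean Nos2 share was 95.2 percentage points (exact two-sided permutation p = 0.1, the smallest possible). Vehicle replicate 3 held both the highest Nos2 share and the highest Arg1 level of its group, and without it the difference was 98.1 percentage points. The summed level of the 3 synthases was 3.40 ± 0.99 CPM per kb in vehicle and 174.5 ± 23.4 CPM per kb in TNF-alpha libraries (SD, n = 3).

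**Figure D2:**
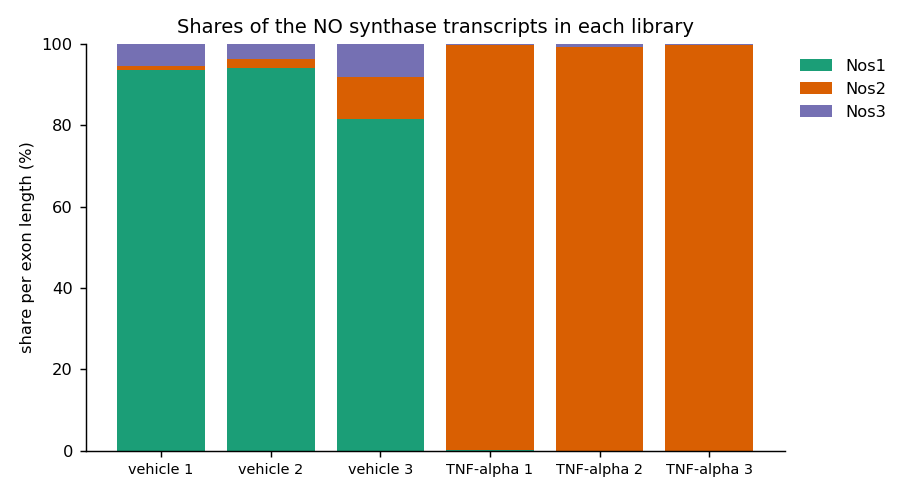
Share of Nos1, Nos2 and Nos3 among the 3 NO synthase transcripts in each of the 6 libraries, in percent of counts per exon length. Nos1 holds 81.6% to 94.1% of each vehicle bar, and Nos2 holds 99.3% to 99.8% of each TNF-alpha bar.

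Gch1, the first and rate-limiting enzyme gene of tetrahydrobiopterin synthesis (chromosome 14, 47153895 to 47189413, minus strand), rose with Nos2. Its level was 8.14, 11.1 and 7.56 CPM in vehicle and 31.9, 36.4 and 36.3 CPM in TNF-alpha replicates 1 to 3. The TNF-alpha libraries lay close together, all above the vehicle libraries, and the fitted rise was 3.90-fold. The log2 fold change was 1.96 ± 0.14 (SE, adjusted p = 1.51e-05). Of 6 other genes of the cofactor's synthesis and recycling, 1 rose, 1 fell and 4 did not pass the test. Their median log2 fold change was -0.08, and 33.3% were called, against 55.5% of all tested genes. The next enzyme gene, Pts, fell from 17.7 ± 1.74 to 12.5 ± 0.32 CPM (SD, n = 3), and Spr, encoding the last enzyme, rose from 28.3 ± 1.69 to 34.1 ± 1.69 CPM. Qdpr, Pcbd1 and Pcbd2 of the recycling steps had log2 fold changes of -0.04, -0.22 and -0.11. Gchfr, the feedback regulator of the Gch1 enzyme, had 0.12.

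Ass1, the first of the citrulline-to-arginine enzymes and known as the limiting one (chromosome 2, 31470207 to 31520672, plus strand), rose strongly, by 5.17-fold. Vehicle and TNF-alpha libraries were apart throughout. Levels were 23.9, 23.7 and 18.1 CPM in vehicle and 95.1, 130.3 and 114.9 CPM in TNF-alpha replicates 1 to 3. The log2 fold change was 2.37 ± 0.15 (SE, adjusted p = 1.54e-05). Its partner Asl (chromosome 5, 130011258 to 130029247, minus strand) rose much less, from 24.8, 26.2 and 24.5 CPM to 30.9, 31.6 and 32.1 CPM. These were the tightest vehicle values of any member, and the small change passed the test (0.33 ± 0.06, adjusted p = 0.0021). The log2 ratio of Ass1 to Asl per exon length went from 0.79 ± 0.20 to 2.84 ± 0.21 (SD, n = 3; two-sided exact test by permutation, p = 0.1, the smallest possible), a comparison chosen after the values were seen.

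The arginases, which compete with NO synthases for arginine, were scarce in every library. Arg1 (chromosome 10, 24915221 to 24927484, minus strand) had 21, 20 and 68 counts in vehicle and 25, 20 and 17 counts in TNF-alpha replicates 1 to 3. Apart from vehicle replicate 3 the libraries lay between 17 and 25 counts. The log2 fold change was -0.77 ± 0.50 (SE, adjusted p = 0.22), and 0.010 without vehicle replicate 3 (adjusted p = 0.986, in a range of 0.107 to 0.986 over the alternatives). Arg2 (chromosome 12, 79130777 to 79156301, plus strand) had 40.5, 33 and 52.5 counts in vehicle and 153.5, 100 and 100 counts in TNF-alpha libraries. The groups did not overlap, and Arg2 rose by 1.496 ± 0.267 on the log2 scale (SE, adjusted p = 0.00144). The opposite-strand gene Vti1b, at 71.0 ± 1.74 and 72.2 ± 2.75 CPM (SD, n = 3), shares 285 exon bases (19.96%) with Arg2, and the part of its reads in the Arg2 values was not tested. The log2 ratio of Nos2 to both arginases per exon length was -3.92, -1.86 and -1.45 in vehicle and 7.27, 7.33 and 7.58 in TNF-alpha replicates 1 to 3. Arginase transcripts thus exceeded Nos2 in each vehicle library and were far below it in each TNF-alpha library (difference 9.80, exact two-sided permutation p = 0.1, the smallest possible). The difference was 9.05 without vehicle replicate 1 and 10.28 without vehicle replicate 3, the ends of its range over the alternatives.

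Both dimethylarginine hydrolase genes changed, in opposite directions. Ddah1 (chromosome 3, 145758675 to 145894277, plus strand) had 12.9, 10.97 and 16.3 CPM in vehicle and 61.7, 56.6 and 54.7 CPM in TNF-alpha replicates 1 to 3, a rise of 2.11 ± 0.14 on the log2 scale (SE, adjusted p = 1.09e-05). Ddah2 (chromosome 17, 35059035 to 35062095, plus strand), the more abundant of the pair, went from 83.6, 76.0 and 97.7 CPM to 57.9, 58.9 and 58.2 CPM (-0.55 ± 0.09, adjusted p = 7.68e-04). Neither gene's groups overlapped. Per exon length the Ddah1 share of the pair went from 5.84% ± 0.40 to 28.3% ± 1.38 (SD, n = 3; two-sided exact test by permutation, p = 0.1, the smallest possible). Their summed level was 57.2 ± 7.60 and 51.1 ± 0.79 CPM per kb (exact two-sided permutation p = 0.3), a difference of -6.08 that did not stand out from the spread of the vehicle libraries. The share and the sum were chosen after the values were seen.

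**Figure D3:**
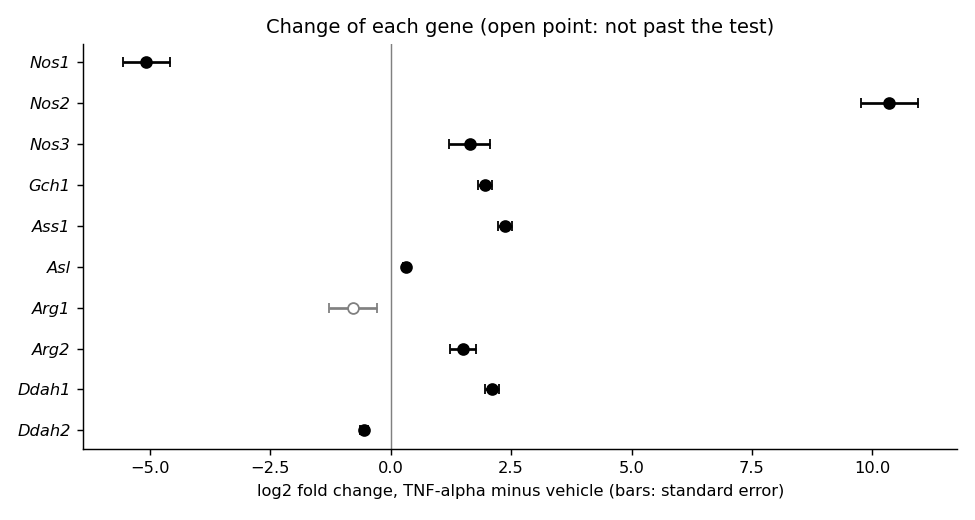
Log2 fold change of each of the 10 genes, TNF-alpha minus vehicle, with bars for the standard error and an open point for the gene not past the test. Nos2 (10.35) and Nos1 (-5.07) lie far outside the range of the other 8, which runs from -0.77 to 2.37.

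The order of the members by level per exon length also changed. In vehicle libraries the means ran from Ddah2 (53.8 CPM per kb) through Ass1 (9.09), Asl (5.21), Ddah1 (3.36), Nos1 (3.09), Gch1 (1.43), Arg2 (0.329), Nos3 (0.183) and Arg1 (0.180) to Nos2 (0.131). Ddah1 and Nos1 overlapped there, as did Nos3, Arg1 and Nos2, and Arg2 overlapped Arg1 and Nos2 but not Nos3. In TNF-alpha libraries the order was Nos2 (174 CPM per kb), Ass1 (47.0), Ddah2 (36.6), Ddah1 (14.5), Asl (6.53), Gch1 (5.58), Arg2 (0.934), Nos3 (0.577), Arg1 (0.105) and Nos1 (0.0911). Overlaps between neighbours there were those of Arg2 with Nos3 and of Arg1 with Nos1.

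Among the genes of cationic amino acid transport, arginine included, Slc7a2, encoding the cationic transporter CAT2, changed most. It had 247, 287 and 165 CPM in vehicle and 1163, 1299 and 1474 CPM in TNF-alpha replicates 1 to 3 (log2 fold change 2.49 ± 0.21 SE, edgeR adjusted p = 7.61e-05). The groups were far apart, and the TNF-alpha level per exon length, 143.6 CPM per kb, came near that of Nos2. Of the 6 transporter genes, 4 rose, none fell and 2 did not pass the test, with a median log2 fold change of 0.30. Called genes made up 66.7% of this list, against 55.5% of all tested genes. The housekeeping transporter gene Slc7a1 rose by 0.33, Slc7a6 by 0.28 and Slc3a2, a heavy chain gene, by 0.51 on the log2 scale. Slc7a3 and Slc7a7 had -0.16 and 0.07.

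Of 17 genes that handle ornithine, polyamines and proline, 7 rose, 5 fell and 5 did not pass the test. The called share was 70.6%, against 55.5% of all tested genes, and the median log2 fold change was -0.08. Odc1, which makes putrescine from ornithine, rose from 185.5 ± 9.09 to 447 ± 44.4 CPM (SD, n = 3; edgeR adjusted p = 5.84e-06). Smox, the spermine oxidase, rose 4.87-fold (adjusted p = 3.7e-05), and Azin2, an antizyme inhibitor that sustains ornithine decarboxylase, rose 2.36-fold. The members that fell, named after their values were seen, were the antizyme gene Oaz1, the polyamine synthesis genes Amd1 and Sms, the ornithine aminotransferase gene Oat and the proline synthesis gene Pycrl, with log2 fold changes of -0.26, -0.29, -0.46, -0.24 and -0.33.

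The first step of creatine synthesis also uses arginine. Its enzyme gene Gatm fell from 130.5 ± 11.98 to 47.2 ± 3.01 CPM (SD, n = 3), a log2 fold change of -1.47 ± 0.08 (SE, edgeR adjusted p = 2.22e-06). Gamt, which completes creatine, fell from 37.7 ± 0.53 to 15.1 ± 1.36 CPM (adjusted p = 3.43e-06). In the list of 4 genes of creatine and agmatine, 3 fell and 1 rose (100% called, against 55.5% of all tested genes). The third to fall was Agmat (-1.98, named after its value was seen), and the one that rose was Azin2, listed here because it was once annotated as an arginine decarboxylase. Of the 7 other urea cycle genes and carriers 4 were tested, of which 1 fell and 3 did not pass the test. The called share was 25%, against 55.5% of all tested genes. The gene that fell was Slc25a12, a mitochondrial aspartate and glutamate carrier (-0.22 ± 0.05, edgeR adjusted p = 0.00713). The liver genes Cps1 and Otc had at most 10 and 6 counts in a library. Nags, which makes the activator of the first urea cycle enzyme, had 0, 2 and 2 counts in vehicle and 8, 15 and 25 in TNF-alpha replicates 1 to 3, too few to enter the test. It was chosen after its values were seen.

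Among protein arginine methyltransferases, only some make the asymmetric dimethylarginine that the Ddah enzymes are linked to. The list held 9 methyltransferase genes and Agxt2, an aminotransferase gene that also acts on dimethylarginines. Of these 10 genes 9 were tested, of which 2 rose, 2 fell and 5, Agxt2 among them, did not pass the test. Calls thus covered 44.4% of the tested list, against 55.5% of all tested genes. Prmt1, the main asymmetric methyltransferase, fell from 133 ± 3.06 to 97.6 ± 6.26 CPM (SD, n = 3; edgeR adjusted p = 3.83e-04), Prmt3 fell by 0.40 and Prmt2 rose by 0.45 on the log2 scale. Prmt9, listed as Prmt10 in the table and named after its value was seen, rose by 0.28 (adjusted p = 0.0306), but its adjusted p was between 0.0509 and 0.0862 with upper-quartile scaling and without vehicle replicate 2 or 3 or TNF-alpha replicate 1 or 3, in a range of 0.0159 to 0.0862.

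Of 13 genes for proteins that bind NO synthases, 3 rose, 4 fell and 6 did not pass the test. At 53.8%, the called share was near the 55.5% of all tested genes. Cav1, encoding caveolin 1, an inhibitor of the endothelial isoform, rose by 1.13 ± 0.17 (SE, edgeR adjusted p = 0.00122), and the scaffold gene Dlg4 by 0.68. Calm3, 1 of the 3 calmodulin genes, fell (-0.68, adjusted p = 1.51e-05). Named after their values were seen, the HSP90 gene Hsp90aa1 rose by 0.31, and Cav3, Hsp90ab1 and Calm2 had -0.28, -0.29 and -0.18. The Hsp90aa1 adjusted p was 0.0580 without vehicle replicate 2 and 0.0513 without TNF-alpha replicate 1 (range 0.0023 to 0.0580). Calm2 no longer passed with the replicate block or without any 1 library other than vehicle replicate 2, and its adjusted p ranged from 0.0187 to 0.123.

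The NO receptor, soluble guanylate cyclase, was barely detected at this depth. Gucy1b3, its beta subunit gene, had 0 counts in all 6 libraries, which allows up to 3 counts in each by counting error alone, and the alpha subunit genes Gucy1a3 and Gucy1a2 had at most 6 and 9 counts in a library. Of the other 5 genes of this list, Pde5a, which degrades cyclic GMP, fell from 67.9 ± 4.08 to 19.3 ± 1.03 CPM (SD, n = 3; edgeR adjusted p = 4.37e-07) and the cyclic GMP kinase gene Prkg1 fell by 0.78 on the log2 scale. Prkg2, the second such kinase gene, rose by 0.39 ± 0.11 (SE, adjusted p = 0.0183), but its adjusted p was 0.0568 and 0.0655 without vehicle replicates 1 and 2 (range 0.00292 to 0.0655).

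Of 9 transcription factor genes known to act on Nos2, 6 rose, 1 fell and 2 did not pass the test. The called share was 77.8%, against 55.5% of all tested genes, and the median log2 fold change was 0.92. The NF-kB subunit genes Nfkb1 and Rela rose by 1.25 and 0.99 and Cebpb by 1.31 on the log2 scale. The factor that fell was Irf1, named after its value was seen (-1.28 ± 0.36 SE, edgeR adjusted p = 0.0261). Its adjusted p was between 0.0541 and 0.0748 under 6 of the 14 alternatives: no filter on low counts, the replicate block, and without vehicle replicate 1 or any 1 TNF-alpha library. The range over all 14 was 2.11e-04 to 0.0748.

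**Figure D4:**
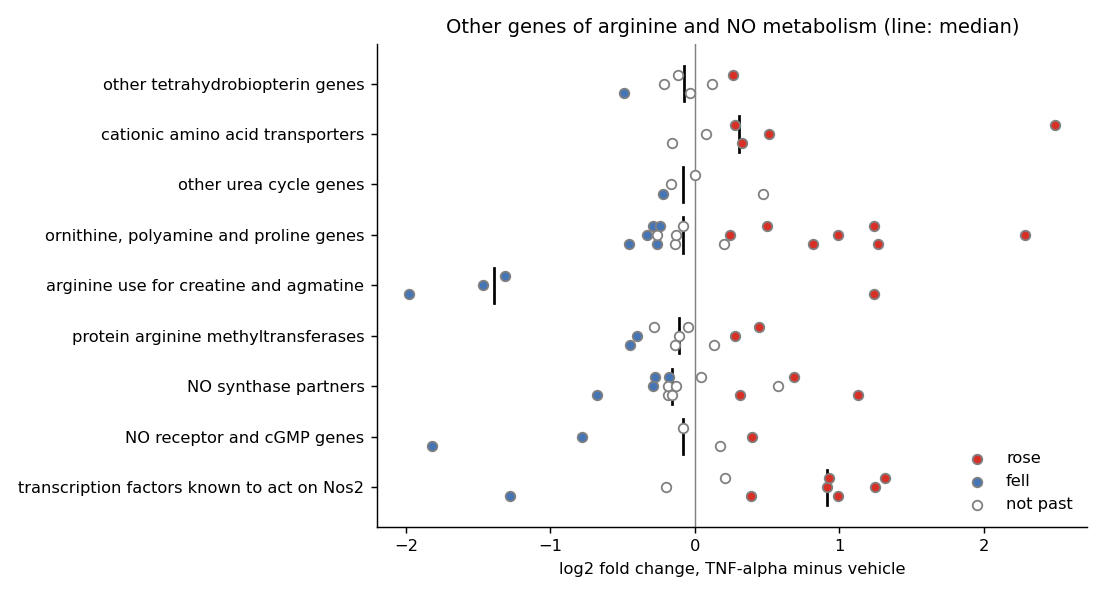
Log2 fold change (TNF-alpha minus vehicle) of every tested gene in the 9 other lists of arginine and NO metabolism, with red points for genes that rose, blue for genes that fell, open points for genes not past the test and a line at each median. The list medians run from -1.39 (creatine and agmatine) to 0.92 (transcription factors), and Azin2 appears in 2 lists.

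Genes of similar pattern were sought for Nos2, Gch1 and Ass1 among 12566 genes, by the root mean square difference of mean-centred log2 CPM over the 6 libraries. The closest to Nos2 were the small proline-rich protein genes Sprr2d, Sprr2e and Sprr2h, but at distances of 1.12 to 1.23 log2 units. In vehicle replicates 1 to 3 Sprr2d had 0 counts throughout, Sprr2e 2, 2 and 0, and Sprr2h 5, 3 and 6. Their vehicle log2 CPM therefore rests largely on the prior count of 2 added before taking log2. These distances mostly compare the size of the rise and say little about a shared pattern among vehicle libraries. The closest to Gch1 were Ccrn4l (0.116), Smad7 (0.121) and Klhl25 (0.121). The closest to Ass1 were the chemokine gene Cxcl16 (0.084), the bacterial sensor gene Nod2 (0.101) and the efflux pump gene Abcb1b (0.109).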

How the data were processed

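The authors deposited 1 table of estimated counts per gene for 6 libraries (stranded mRNA kit, per the labels' protocols). Decimals occur in 20.1% to 21.0% of the values, against the design text, which speaks of integers. The submitters' processing notes name Subread 2.0.0 (featureCounts), Bowtie2 2.3.5.1, DESeq2 and TopHat2 2.1.1, and as builds GRCm38 and mm10, without roles. Counting options, strand included, are not given in those sources. Counts were rounded to whole numbers, filtered with filterByExpr, scaled with TMM and tested with edgeR 4.0.16 (R 4.3.3; glmQLFit, robust) with group as the only term. SEs come from the F statistic. Member and overlapping-gene positions and exon lengths are from GENCODE M21 (GRCm38). The code was tested on simulated data. Replicates differed by more than sampling noise (chi-square per degree of freedom 23.1 to 70.6).

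The members and lists were chosen with earlier results of these data known. Named genes were all members, cofactor genes and transporters, up to 3 called genes per other list with the smallest p, and 3 nearest genes for each of 3 members. Alternatives were other scalings, filters and tools (DESeq2 1.42.0, limma-voom of limma 3.58.1), a replicate block, no robust estimation, other lengths and leaving out each library. One further gene of cofactor metabolism is not reported here.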

Additional observations from a re-analysis of the deposited data

How the results depend on the processing

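Of the 10 members, 8 kept their direction and their side of the threshold under every alternative run. The exceptions were Nos3, given above, and Arg1, whose log2 fold change was 0.010 without vehicle replicate 3 (range -1.08 to 0.010 without 1 library; the filter of 1 CPM in 3 libraries left Arg1 untested). Without 1 library, 6 to 7 members rose and 2 fell. Among other named genes, Pcbd1 (-0.33 to 0.015 without 1 library), Slc7a3 (-0.36 to 0.10) and Slc7a7 (-0.074 to 0.20) changed sign, the first without vehicle replicate 3 and the others without vehicle replicate 1, and none passed the test. The number of urea cycle genes that rose, 0, came to 1 when low counts were not filtered and to 0 to 1 without 1 library, the gene being Nags, which then passed the filter. The number of methyltransferase genes that rose was 1 with upper-quartile scaling and 1 to 2 without 1 library. The number of NO receptor and cyclic GMP genes that rose was 0 to 2 without 1 library, and the number of transcription factor genes that fell was 0 with no filter, 0 with the replicate block and 0 to 1 without 1 library. For the last 3 counts the cause was not tested. Same-numbered vehicle and TNF-alpha libraries deviated together with correlations of 0.04, -0.051 and -0.117, and only replicate 1 correlated best with its own number. These values show no shared effect of the number, but so few libraries cannot exclude that the samples were paired. With the replicate block 4243 genes rose and 4244 fell, against 4364 and 4405. Upper-quartile scaling moved the median of all genes to -0.03 and changed no member's call. At this depth Arg1, Nos3 and Arg2 rest on at most 355 counts in a library.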
